A study of Homo sapiens with 14 samples.

Results

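The nucleoporins and nuclear transport receptors are the proteins that build the nuclear pore and carry cargo through it. Genes were taken by symbol alone: NUP, IPO, XPO and TNPO followed by a number (or, for the exportins, T), KPNA and KPNB followed by a digit, and TPR, RANBP2, NDC1, POM121 and CSE1L. This gave 49 genes of the 58434 symbols in the count table, 24 nucleoporins and 25 transport receptors. They were followed in MDA-MB-231 cells, an established line from a triple-negative breast cancer, in which a doxycycline-inducible shRNA was either non-silencing (MB-231-shNSi) or directed against DAP5 (MB-231-shDAP5), the eIF4G-related initiation factor encoded by EIF4G2. Both lines carried a stable shRNA construct and both received doxycycline at 1 µg/ml for 6 days, so the lines differ in the shRNA and not in the drug. Each line had 2 cultures. Each culture was sampled as total mRNA, light polysome mRNA (few ribosomes, poorly translated) and heavy polysome mRNA (more ribosomes, well translated) from sucrose gradients, and each shNSi culture also as a moderate polysome pool, giving 14 RNAseq libraries. No rescue of DAP5 is among the samples, so an effect of the shRNA on other transcripts cannot be told apart from loss of DAP5.

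The nuclear pore is a ring of repeated subcomplexes. The Y complex forms the outer rings, the inner ring holds the pore to the membrane together with the transmembrane nucleoporins, phenylalanine-glycine nucleoporins fill the central channel, and cytoplasmic filaments and a nuclear basket extend on either side. Importin alpha adaptors bind classical nuclear localization signals and are themselves carried by importin beta, while the other importins, transportins and exportins of the importin beta family bind cargo directly. Direction is set by the small GTPase Ran, whose GTP form releases cargo from importins and loads it onto exportins.

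Because DAP5 acts when the ribosome is brought to the start codon, the bases around that codon are shown for the member with the lowest and the member with the highest change in heavy translation efficiency in 4 classes. Sequences are mRNA sense from GENCODE v29 transcripts (GRCh38), the last 9 bases of the 5′ UTR and the first 9 after the start codon, with the start codon in capitals and the gene's own position given beside it.
NUP188 (inner ring, lowest), chr9:128947699-129007096, plus strand: cgcgcgaagATGgcggcggcc
NUP35 (inner ring, highest), chr2:183117513-183161680, plus strand: gccgacgcaATGgcagccttt
NUP107 (Y complex, lowest), chr12:68686734-68745809, plus strand: gctttagccATGgacaggagt
NUP37 (Y complex, highest), chr12:102073103-102120124, minus strand: acatacaagATGaagcaagat
TNPO1 (import receptor, lowest), chr5:72816312-72916733, plus strand: caaaccaagATGgagtatgag
IPO13 (import receptor, highest), chr1:43946939-43968022, plus strand: ggagcaaagATGgagcggcgg
CSE1L (exportin, lowest), chr20:49046246-49096960, plus strand: cctatagcaATGgaactcagc
XPO6 (exportin, highest), chr16:28097979-28211920, minus strand: ccggccagcATGgcatctgaa
All 8 have a purine at the third base before the start codon, and 7 of 8, the exception being NUP37, have a G directly after it, the features of a strong start site. Of 48 members with such a window, 43 (89.6%) have the purine, against 85.1% of 17821 coding genes, and 35 (72.9%) have the G, against 50.7%. Both features are present in 31 members (64.6%) and in 42.7% of coding genes. Among members called lower in heavy translation efficiency below, 15 of 24 with a window have both, and among the others 16 of 24. The difference between these shares was not tested, and the windows are a description of these letters only.

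Depth was even, with 25899838 to 30795910 counts per library, so the 2 cultures per group rather than the reads limit the precision for all but a few members. The study describes its data sets as performed independently, while the labels give replicate numbers only, and p-values measure the spread between these samples. EIF4G2 had 1386 and 1334 CPM (read counts relative to the scaled library size) in shNSi total mRNA and 523 and 723 CPM in shDAP5 total mRNA, a log2 change of −1.11 (standard error 0.18, edgeR adjusted p = 0.0172). Its heavy polysome levels were 1284 and 1229 CPM in shNSi and 672 and 687 CPM in shDAP5, with a change of −0.86 (edgeR adjusted p = 0.0691), and its change in light polysomes was −1.33 (edgeR adjusted p = 0.430). The lines overlapped in neither total nor heavy polysome mRNA. Markers of this mesenchymal line were present in every total library, with VIM at 4355 to 5450, CD44 at 206 to 634, AXL at 449 to 941 and CAV1 at 440 to 666 CPM. Their summed level did not overlap between the lines, at 7332 to 7568 CPM in shNSi and 5567 to 6107 CPM in shDAP5. None of the 4 was called in total mRNA by edgeR, where CD44 had a change of −1.14 and AXL one of −0.73, and 2 of 4 were called lower in heavy polysomes, CD44 at −1.94 and VIM at −1.35. Their part in the members' results was not tested. Of the luminal markers PGR had no counts, ESR1 7 to 11 and CDH1 2 to 7 counts per library, while ERBB2 had 45.7 to 68.5 CPM and EPCAM 3.96 to 5.43. Among leukocyte and endothelial markers PTPRC had 1 to 3, CD3E 0 to 2 and VWF 4 to 12 counts per total library, and CD14 had 0.93 to 2.54 CPM. 2 points in the labels touch the results. The shDAP5 light libraries are titled light but carry the code of the moderate pool, and the shDAP5 total libraries are titled total polysome. Titles were followed, and the count of members called in each polysome comparison that uses shNSi is given below also with the shNSi moderate pool in place of, or summed with, the shNSi polysome library.

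In shNSi total mRNA the members covered a wide range of levels. Per kilobase of exon, KPNA2, an importin alpha of dividing cells, was highest at 220 ± 33.3 CPM per kb (SD, n = 2 cultures). CSE1L, which returns importin alpha to the cytoplasm, followed at 117 ± 11.6 and importin beta itself, KPNB1, at 106 ± 2.98. The CSE1L and KPNB1 levels lay within their spread of each other, whereas IPO5 at 82.8 ± 1.55 and IPO7 at 60.0 ± 1.64, importers of ribosomal proteins and histones, stood apart. The nucleoporins lay lower, from NUP85 at 48.3 ± 7.24 and NUP188 at 39.8 ± 6.81 down to RANBP2 at 4.86 ± 0.43 and NUP210 at 3.94 ± 0.78 CPM per kb. The lowest receptors were IPO4 at 1.20 ± 0.27, KPNA5 at 0.27 ± 0.0044 and KPNA7, an importin alpha of the egg and early embryo, at 0.14 ± 0.0053. KPNA7 had 0 to 11 counts per library, so its fitted changes carry almost no information, and where 48 members were tested it is the one that did not pass the filter on low counts. Reads of RANBP2 and POM121 can also come from their near-identical relatives (the RGPD genes and POM121C), and NUP98 mRNA encodes both NUP98 and NUP96.

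Total mRNA of the members did not pass the test in either direction. None of 48 members tested was called changed in shDAP5 (edgeR, adjusted p under 0.05), where 0.354% of all 14992 genes tested were called. DESeq2 and limma called 0 members after adjustment, against 2.02% and 0.0534% of all genes. At an unadjusted p under 0.05 edgeR gave 3 members, all lower, against 7.01% of all genes. These 3 were NDC1, a transmembrane anchor of the pore, at −0.56 (standard error 0.23), RANBP2, the SUMO ligase of the cytoplasmic filaments, at −0.46 (standard error 0.20), and the import receptor IPO5 at −0.43 (standard error 0.18). The median log2 change of the members was −0.12, against 0.01 over all genes tested, with a range from −0.56 to 0.33, and 39 of 48 members were below 0. This median was 0.0054 without shDAP5 culture 1 and −0.30 without shDAP5 culture 2. In the study's question, which mRNAs depend on DAP5 for translation rather than abundance, this comparison gives the level against which polysome mRNA is read.

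In heavy polysomes most members were lower in shDAP5. The 49 genes together took 1.17% and 1.44% of the counts of the shNSi heavy libraries and 0.73% and 0.56% of those of shDAP5. In total mRNA the same share was 0.77% and 0.76% in shNSi and 0.63% and 0.79% in shDAP5. The heavy shares did not overlap between the lines and the total shares did. Of 48 members tested, 34 were called lower and none higher (edgeR), where 16.7% of 14270 genes were called lower and 14.2% higher. The median member changed by −1.25 on the log2 scale and the median gene by 0.09. Without shDAP5 culture 2 no member and 0.0134% of all genes were called, and the members' median was −1.17. The median was −0.56 with the offset for coding length described below, −0.63 with shNSi heavy and moderate summed and 0.42 with shNSi moderate as the control. With library sizes alone in place of TMM scaling 25 members were called lower and none higher, against 7.98% and 17.5% of all genes. The 2 shDAP5 libraries were both under the 2 shNSi libraries for 40 of the 48 members, against 30.9% of all genes. Fewer ribosomes on each mRNA and fewer molecules of that mRNA in the pool cannot be told apart in one fraction, which is why the ratio to total mRNA is taken next.

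Heavy translation efficiency, the ratio of heavy polysome to total mRNA within a culture, was lower in shDAP5 for members of all 9 classes. Of the 49 members, 25 were called lower and none higher (edgeR, interaction of fraction and shRNA with a term for each culture), where 8.23% of 15374 genes were called lower and 4.85% higher. The median change was −1.02 in the members and 0.09 over all genes, and 46 of 49 members were below 0. For 39 members the ratios of both shDAP5 cultures lay below those of both shNSi cultures, against 28.3% of all genes. For a single gene the smallest two-sided p an exact permutation of 4 cultures allows is 0.333, so the calls rest on the spread estimated across all genes. They also rest on single cultures: 0 members were called without shNSi culture 2, where 0.025% of all genes were, and 1 without shDAP5 culture 2, where 0.27% were. The members' median change was −0.85 and −0.86 in these fits. With library sizes alone in place of TMM scaling the count was 0 as well, as it was over all genes, the median of all genes then moving from 0.09 to 0.30. Relative to the median gene the members' median change was −1.11 under either scaling.

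**Figure D1:**
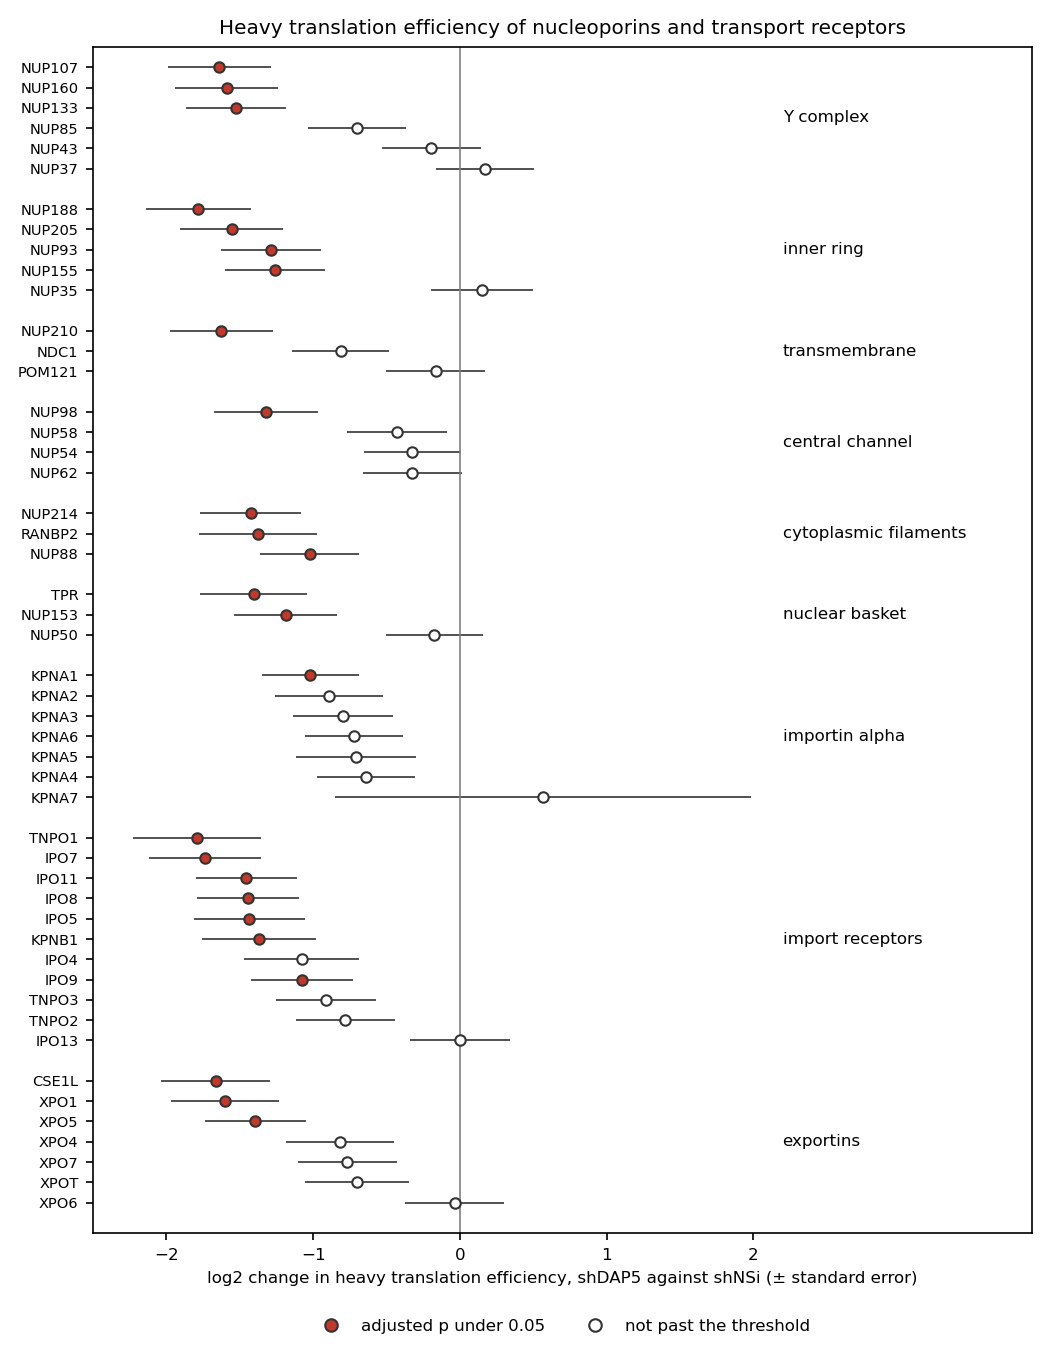
Log2 change in heavy translation efficiency (x axis, shDAP5 against shNSi, bars are standard errors) for each of the 49 members, grouped by class and ordered within it. Filled points are the 25 members with an edgeR adjusted p under 0.05, all left of 0, from −1.79 for TNPO1 to −1.02 for KPNA1 and NUP88.

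The scaffold of the pore was represented among the lowest members. In the inner ring 4 of 5 members fell. NUP188, a large scaffold nucleoporin, had 349 and 700 CPM in the shNSi heavy libraries and 132 and 111 CPM in those of shDAP5, with 199 and 254 CPM in shNSi total mRNA and 170 and 212 CPM in shDAP5 total mRNA. Its heavy levels were thus apart by line while its total levels overlapped. The change in its heavy translation efficiency was −1.78 (standard error 0.36, edgeR adjusted p = 0.00570). NUP205, the paralogous scaffold, had a change of −1.55, NUP93, which joins these scaffolds to the channel, one of −1.29 and NUP155, which contacts the membrane, one of −1.26, all past the threshold. NUP35, the small membrane-binding member of the same ring, had log2 ratios of 0.60 and −0.16 in shNSi and 0.41 and 0.32 in shDAP5, with a change of 0.15 (standard error 0.35). Its cultures overlapped.

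In the Y complex 3 of 6 members fell, and they were the 3 longest. NUP107 had log2 ratios of heavy to total mRNA of 0.95 and 1.65 in shNSi and −0.04 and −0.64 in shDAP5, so that the lines did not overlap. Its change was −1.64 (standard error 0.35, edgeR adjusted p = 0.00690). NUP160 and NUP133 fell with changes of −1.59 and −1.52. NUP85 had a change of −0.70 (edgeR adjusted p = 0.153), and the small propeller proteins NUP43 and NUP37 had changes of −0.19 and 0.17 with overlapping cultures. NUP37 had ratios of 0.66 and 0.09 in shNSi and 0.47 and 0.62 in shDAP5.

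All 3 measured cytoplasmic filament nucleoporins fell. NUP214, an anchor of the mRNA export platform, had log2 ratios of 0.49 and 1.28 in shNSi and −0.34 and −0.73 in shDAP5. The change was −1.43 (standard error 0.34, edgeR adjusted p = 0.00849). RANBP2 and NUP88, the partner of NUP214, fell with changes of −1.38 and −1.02, with ratios for NUP88 of 0.99 and 1.38 in shNSi and 0.26 and 0.07 in shDAP5. No filament member overlapped between the lines. In the nuclear basket 2 of 3 fell, TPR, its main filament, with a change of −1.41 and NUP153, which tethers it to the pore, with one of −1.19. TPR ratios were 0.15 and 1.16 in shNSi and −0.38 and −1.10 in shDAP5. NUP50, a mobile cofactor of importin release, had 0.24 and 0.04 in shNSi and 0.21 and −0.28 in shDAP5, a change of −0.17 (standard error 0.33) with overlap.

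Among the transmembrane nucleoporins only NUP210, a membrane glycoprotein, was called, at −1.63 (standard error 0.35, edgeR adjusted p = 0.00746). Its ratios were 0.68 and 1.33 in shNSi and −0.44 and −0.74 in shDAP5. NDC1 had a change of −0.81 (edgeR adjusted p = 0.0899) and POM121 one of −0.17 (standard error 0.34). The POM121 ratios overlapped, at −0.0068 and 0.34 in shNSi and 0.28 and −0.28 in shDAP5. In the central channel NUP98 fell by 1.32 (edgeR adjusted p = 0.0142), from ratios of 0.68 and 1.38 to 0.02 and −0.60. NUP62, NUP54 and NUP58, which assemble into 1 channel complex, had changes of −0.32, −0.32 and −0.43, none past the threshold. The NUP62 ratios, 0.73 and 0.53 in shNSi and 0.26 and 0.36 in shDAP5, did not overlap.

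Of the importin beta family import receptors 7 of 11 fell. TNPO1, the importer of proteins with a proline-tyrosine signal such as several RNA-binding proteins, had 415 and 414 CPM in shNSi heavy polysomes and 142 and 66.4 CPM in those of shDAP5, with total levels of 169 and 124 CPM in shNSi and 93.9 and 147 CPM in shDAP5. Its heavy levels did not overlap and its total levels did. The change in heavy translation efficiency was −1.79 (standard error 0.44, edgeR adjusted p = 0.0142), with the 2 shDAP5 cultures far apart in ratio, at 0.59 and −1.14. IPO7, IPO11, IPO8, IPO5 and IPO9 fell with changes of −1.74, −1.46, −1.45, −1.43 and −1.08. KPNB1, the carrier of importin alpha, fell by 1.37 (edgeR adjusted p = 0.0189), its heavy level going from 1446 and 2193 CPM in shNSi to 689 and 492 CPM in shDAP5. IPO4 had a change of −1.08 (edgeR adjusted p = 0.0579) on the fewest reads of the class. TNPO3, the importer of serine-arginine splicing factors, had −0.91 (edgeR adjusted p = 0.0622) and TNPO2 −0.78 (edgeR adjusted p = 0.107). IPO13, a receptor that works in both directions, had a change of 0.00 (standard error 0.34), with ratios of 0.61 and 0.08 in shNSi and 0.18 and 0.51 in shDAP5.

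Of the importin alpha adaptors 1 of 7 fell. KPNA1 had ratios of 1.12 and 1.30 in shNSi and 0.33 and 0.06 in shDAP5, without overlap. Its change was −1.02 (standard error 0.33, edgeR adjusted p = 0.0353). KPNA2, KPNA3, KPNA4, KPNA5 and KPNA6 had changes between −0.89 and −0.64 that did not pass the threshold, all without overlap between the lines, and KPNA7 had 0.57 with a standard error of 1.42. KPNA7 ratios were −0.55 and −0.35 in shNSi and −0.58 and −0.43 in shDAP5, on 0 and 2 heavy polysome counts in shNSi and 2 and 3 in shDAP5.

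Of the exportins 3 of 7 fell. CSE1L had 942 and 1445 CPM in shNSi heavy polysomes and 404 and 327 CPM in shDAP5 heavy polysomes, beside 393 and 453 CPM in shNSi and 375 and 463 CPM in shDAP5 total mRNA. The heavy libraries were apart and the total libraries overlapped, for a change of −1.66 (standard error 0.37, edgeR adjusted p = 0.00750). XPO1, the exporter of proteins with a leucine-rich export signal, and XPO5, which exports microRNA precursors, fell with changes of −1.60 and −1.39. XPO4, XPO7 and XPOT, the exporter of tRNA, had changes of −0.82, −0.77 and −0.70, none called. XPO6, the exporter of actin with profilin, had ratios of 0.34 and 0.30 in shNSi and 0.23 and 0.33 in shDAP5, a change of −0.04 (standard error 0.34), and the lines overlapped.

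**Figure D2:**
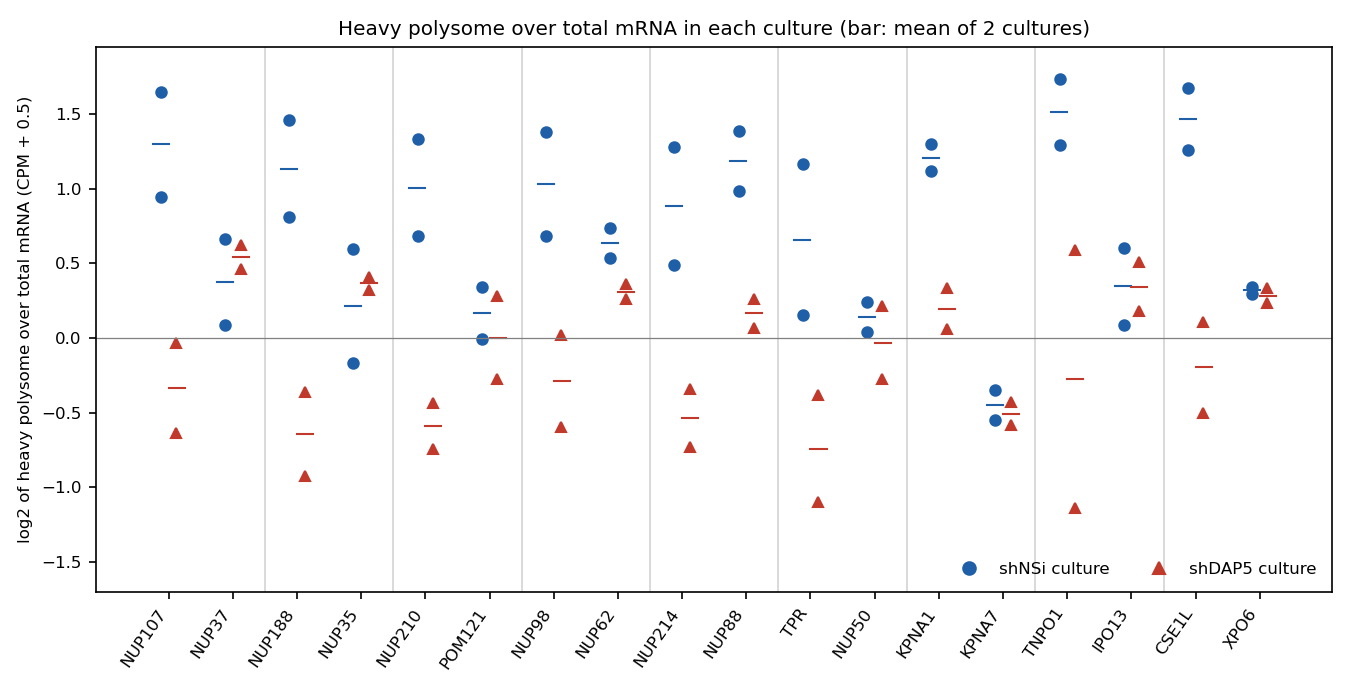
Log2 of heavy polysome over total mRNA (y axis, CPM plus a pseudocount of 0.5) in each culture for the members with the lowest and the highest change of each class, circles for shNSi, triangles for shDAP5 and a bar for the mean of 2 cultures. In TNPO1 the shDAP5 cultures lie at 0.59 and −1.14, below shNSi cultures at 1.29 and 1.74, while in XPO6 all 4 cultures lie between 0.23 and 0.34.

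Light polysome mRNA and light translation efficiency of the members did not pass the test. In light polysomes 0 of 48 members were called (edgeR), as were 0 of 15529 genes, and 2 members were past an unadjusted p of 0.05, against 8.56% of all genes, NUP43 at −0.72 and NUP54 at 0.61. The median change was −0.03 in the members and −0.01 over all genes. In light translation efficiency edgeR called 0 of 49 members and 0 of 15967 genes, and 1 member, NDC1 at 0.47, was past an unadjusted p of 0.05, against 5.22% of all genes. The share of all genes called after adjustment was 0% in both comparisons. The members' median there was 0.22 against 0.01 over all genes, and 38 of 49 members were above 0. This median was 0.085 without shDAP5 culture 1, 0.12 without shNSi culture 1 and 0.074 with the offset for coding length. For 23 members the light ratios of both shDAP5 cultures lay above those of both shNSi cultures, against 18.7% of all genes. With the shNSi moderate pool as the control, 5 members were called lower in light polysome mRNA, against 13% of all genes, and 7 in light translation efficiency, against 13.8%, and the members' medians were −0.54 and −0.21. With light and moderate summed 1 member was called lower in each, against 0.602% and 2.18% of all genes. Without shNSi culture 1 the counts in either direction were 8 and 6, against 28.9% and 12.3% of all genes.

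The distribution of member mRNA between heavy and light polysomes differed between the lines. In shNSi all 48 members tested had more heavy than light polysome mRNA, and 41 were called higher in heavy polysomes (edgeR), against 29.8% of 14798 genes. Their median log2 ratio of heavy over light was 2.01, where the median gene had −0.13. In shDAP5 30 of 48 were called higher, against 24.8% of 15336 genes, and the median was 0.76, where the median gene had −0.03. Without any offset no member was called lower in either line, where 32.2% of all genes were in shNSi and 25.1% in shDAP5. In shNSi 24 members exceeded a log2 ratio of 2, and 0 did in shDAP5. The ratio was lower in shDAP5 than in shNSi for 43 of the 48. Neither count was made over all genes. The highest ratio of any gene tested was 7.31 in shNSi and 3.58 in shDAP5. Genes with 4000 or more coding nucleotides had medians of 1.38 and 0.23, and the members among them 2.11 and 0.38. In shDAP5 the members' median was 0.53 without culture 1 and 0.99 without culture 2. Fewer members were called in those 2 fits, which also took their spread from the shNSi libraries. With the offset for coding length the medians were 0.93 in shNSi and 0.43 in shDAP5. In that fit 28 members were called higher and 1 lower in shNSi, against 19.3% and 27.4% of all genes, and 16 higher and 6 lower in shDAP5, against 20.2% and 28.9%. With shNSi moderate in place of light 35 members were called higher in shNSi, against 23.2% of all genes, with a median of 1.78. With light and moderate summed it was 39, against 27.9%, with a median of 1.94. With moderate in place of heavy it was 8, against 14.8%, with a median of 0.40, and with heavy and moderate summed 41, against 29.2%, with a median of 1.40. These last 3 exchanges were added after the data were seen, and shDAP5 has no moderate pool here.

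The difference was then tested itself, as the interaction of fraction and shRNA over the heavy and light libraries, a comparison added after the data were seen. It called 19 of 48 members lower and none higher (edgeR), against 5.21% of 15878 genes lower and 1.54% higher. No fit with the offset for coding length, DESeq2, limma or library sizes alone was made for it. In what follows the ratios come from the fits within each line and the differences from the interaction fit, which is scaled and moderated separately, so a difference is not exactly that of its ratios. NUP188 went from 2.66 in shNSi to 0.38 in shDAP5, with a fitted difference of −2.36 (standard error 0.47, edgeR adjusted p = 0.0175). IPO7 went from 2.26 to 0.12, NUP205 from 2.15 to 0.11 and NUP160 from 1.90 to −0.02. None of these 4 ratios was past the threshold within shDAP5 (edgeR). CSE1L and TNPO1 kept ratios of 1.23 and 1.08 in shDAP5, from 2.90 and 2.93. At the other end, NUP37 had 0.99 in shNSi and 1.56 in shDAP5, and NUP43 1.82 and 1.94, with fitted differences of 0.50 and 0.05 that were not called. NUP35, XPO6 and IPO13 had fitted differences of 0.00, 0.01 and 0.24 with standard errors of 0.50, 0.45 and 0.43. Without shDAP5 culture 2 no member was called, against 0.0121% of all genes, and without shNSi culture 2 12 were called lower, against 2.55%. No member and no gene was called with shNSi heavy and moderate summed, nor with shNSi moderate in place of heavy, where the median difference was 0.36. With moderate in place of light 20 were called lower and 3 higher, against 12% and 11.9% of all genes, and with light and moderate summed 25 lower and 2 higher, against 9.52% and 6.12%. The heavy libraries are the same as in heavy translation efficiency, so this is not a separate set of measurements.

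**Figure D3:**
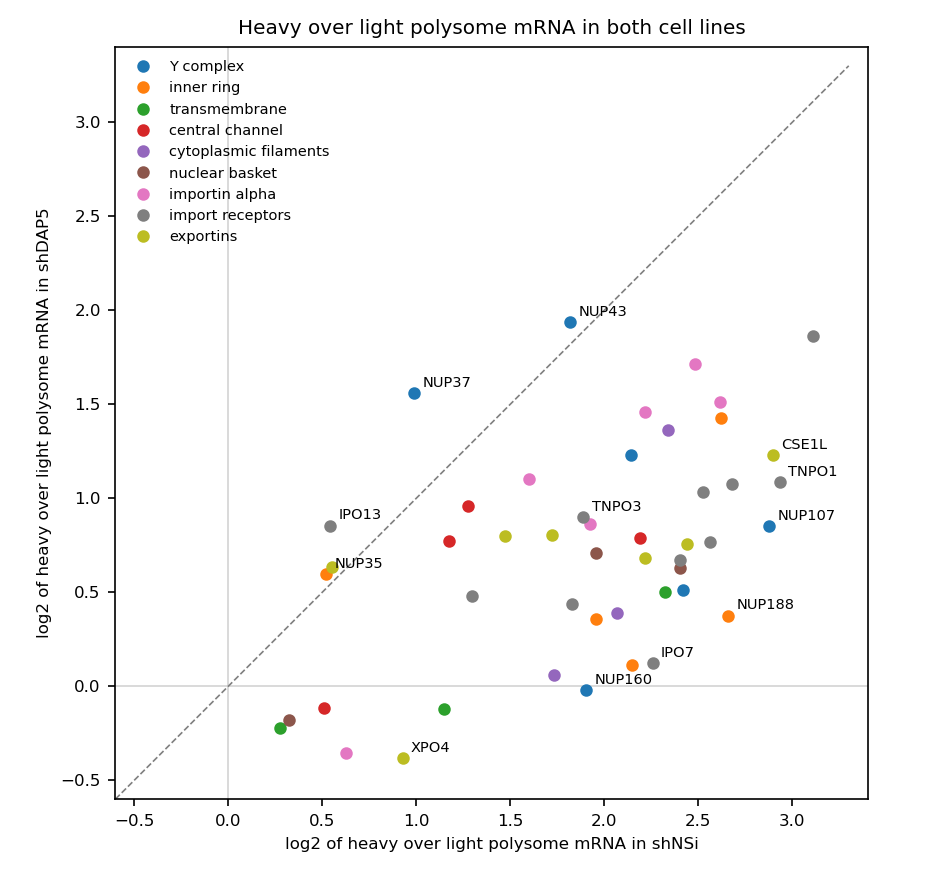
Log2 ratio of heavy over light polysome mRNA of each member in shNSi (x axis) and in shDAP5 (y axis), coloured by class, with a dashed line where both lines are equal. Of 48 members 43 lie below the dashed line and no member exceeds 2 in shDAP5, where KPNA5 and XPO4 are among those below 0. The same counts were not made over all genes.

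Coding sequence length moved with these values. The members' coding sequences ran from 978 to 9672 nucleotides with a median of 2889, against a median of 1413 over 12485 genes with a coding length in this comparison. The 25 members called lower in heavy translation efficiency had a median of 3291 and the other 24 one of 1689. Across all these genes Spearman's rho of the heavy translation efficiency change with coding length was −0.71, and across the 49 members −0.64. These describe genes that share the same 8 libraries. Below 2000 nucleotides 1 of 15 members was called lower, from 2000 to below 3000 it was 7 of 13, from 3000 to below 4000 it was 7 of 11, and from 4000 on 10 of 10. In the same ranges 2.41%, 21.2%, 31.3% and 34.7% of all genes were called lower. The median changes of the members were −0.43, −1.02, −1.39 and −1.42, and those of all genes 0.26, −0.57, −0.75 and −0.93, so that the members' median lay lower in each range.

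Set against the median gene of the same coding length, 44 of 49 members lay lower and 5 higher, with a median difference of −0.43. TNPO1 was furthest below, by −1.15, at a coding length of 2670, followed by IPO7 at −1.02 and XPO1 at −0.91. KPNA1, at 1614 nucleotides, lay −0.81 below genes of its length. IPO13 at 2889, XPO6 at 3375 and POM121 at 2952 nucleotides were as long as many called members and lay above genes of their length by 0.76, 0.65 and 0.58. In a fit with an offset for coding length in every library, 3 of 49 members were called lower in heavy translation efficiency by edgeR, where 1.06% of all genes were, CSE1L at −0.98 (edgeR adjusted p = 0.0409), NUP107 at −0.98 and IPO7 at −1.01 (both edgeR adjusted p = 0.0412). The members' median in that fit was −0.41 and that of all genes 0.06. In heavy polysome mRNA the same offset left 15 of 48 members called lower, against 6.16% of all genes.

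**Figure D4:**
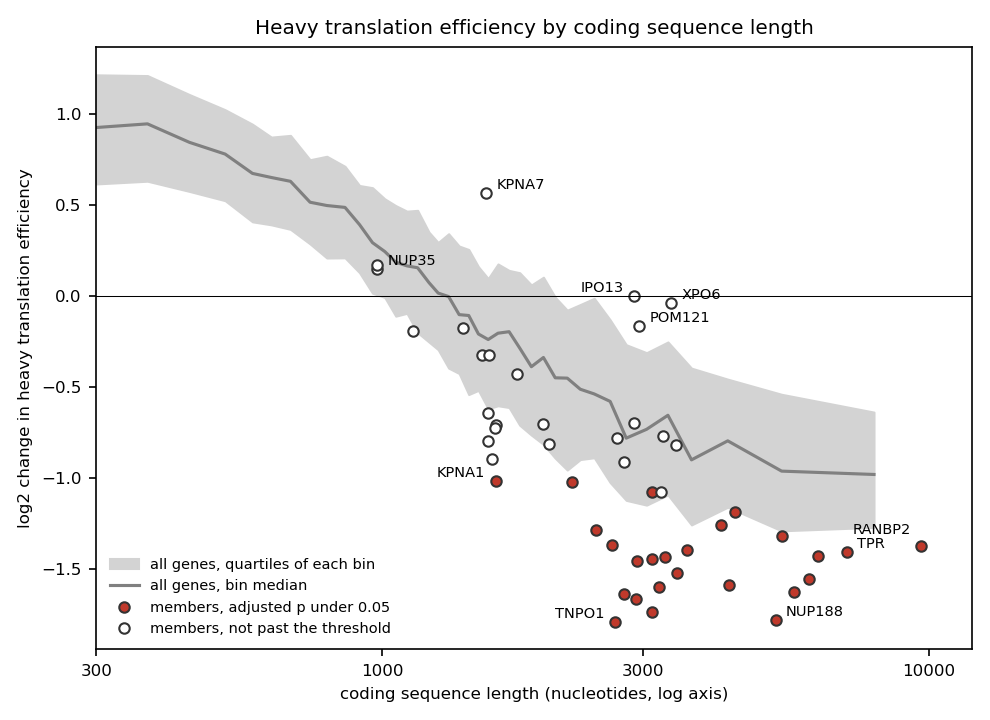
Log2 change in heavy translation efficiency (y axis) against coding sequence length (x axis, log scale) for the 49 members, filled where the edgeR adjusted p is under 0.05, over the median (grey line) and quartiles (grey band) of 40 bins of all genes, with the shortest genes outside the axis. Most members lie below the grey line, whereas IPO13, XPO6 and POM121 lie above it by 0.58 to 0.76.

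The choice of the shNSi polysome library changed the result. In shNSi itself 35 of 48 members were lower in the moderate pool than in the heavy pool (edgeR, added after the data were seen), against 23.2% of 14187 genes, with a median of −1.78 against 0.14. NUP188 had 49.9 and 106 CPM in the moderate pool where it had 349 and 700 in the heavy pool, and CSE1L had 142 and 287 where it had 942 and 1445. Levels in the shDAP5 heavy libraries were 132 and 111 for NUP188 and 404 and 327 for CSE1L, higher numbers than in the shNSi moderate pool. CPM of the moderate pool were scaled in their own fit, so 111 against 106 for NUP188 is not read as a difference. With the moderate pool as the shNSi control the median change in heavy translation efficiency was 0.55, with 39 of 49 members above 0, and with heavy and moderate summed −0.29, with 43 below 0. No member and no gene was called under either (edgeR). In heavy polysome mRNA the counts were 0 and 2, against 0.344% and 2.77% of all genes called in either direction. The labels pair heavy with heavy, and whether the pools cover the same part of the gradient in both lines was not tested.

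**Figure D5:**
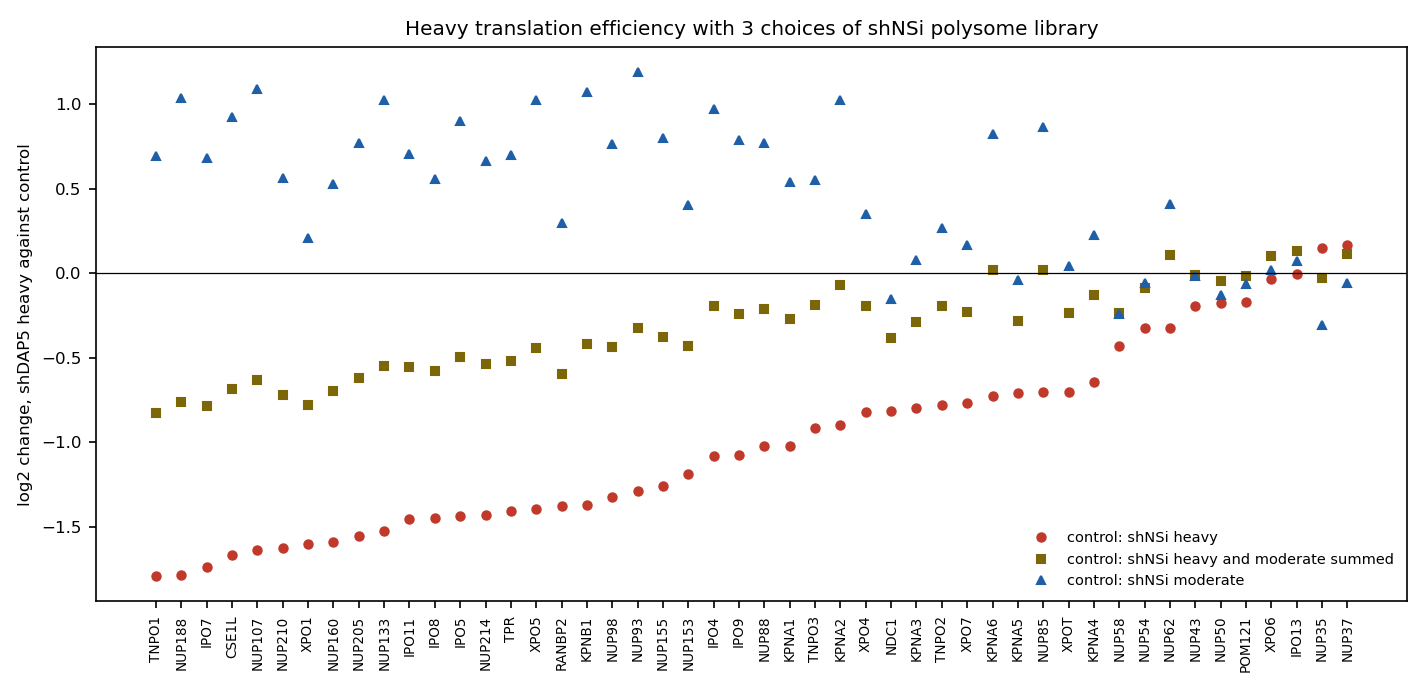
Log2 change in heavy translation efficiency (y axis) of 48 members (KPNA7 is left out for its low counts), ordered by the change against shNSi heavy (circles), with shNSi heavy and moderate summed (squares) or shNSi moderate alone (triangles) as the control. Medians over all 49 members are −1.02, −0.29 and 0.55.

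Other genes of the transport pathway were read from 3 lists, against 13.1% of all genes called in heavy translation efficiency in either direction. Their coding lengths were not taken into account. Over all genes the median change ran from 0.95 in the length bin around 372 nucleotides to −0.98 in that around 7941. Whether these genes differ from others of their length was not tested. Of 6 genes of the Ran cycle none was called in heavy translation efficiency by edgeR in either direction, with a median of 0.45. RAN had a change of 0.82 (edgeR adjusted p = 0.136), RANBP1, its binding protein, 0.87 (edgeR adjusted p = 0.0713) and NUTF2, which imports Ran, 0.76, while RANGAP1, its GTPase activator, had −0.48. Of 8 further pore components tested 1 fell, AHCTF1, the large Y complex protein also called ELYS, by 1.35 (edgeR adjusted p = 0.0190), and the median was −0.36. SEC13 and SEH1L, the small Y complex propellers, had 0.50 and 0.16. Of 8 mRNA export genes MCM3AP, the scaffold of the TREX-2 complex, fell by 1.12, NXT1, the small partner of the export receptor, rose by 1.30 (edgeR adjusted p = 0.0135), and the median was 0.19. None of these genes was called in total mRNA by edgeR.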

How the data were processed

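Per the deposited files, the authors' values are read counts per gene symbol, whole numbers without normalization. The submitters' processing notes name STAR 2.6.0a and hg19; the name of the deposited count table gives featureCounts as the counter and a tag, rev, that may stand for reverse-strand counting, while the version and the treatment of overlapping genes are not given in the sources used here. Positions, coding lengths and sequences come from GENCODE v29 (GRCh38), which matched all 49 members and 37619 of 58432 distinct symbols. Counts were filtered with filterByExpr, scaled by TMM and tested with edgeR 4.0.16 (R 4.3.3, quasi-likelihood, robust), adjusted by Benjamini-Hochberg over all genes tested at 0.05. Total, heavy and light mRNA were fitted in 4 libraries each. For translation efficiency 8 libraries were fitted with a term for each culture and the fraction by shRNA interaction was tested, and heavy over light was fitted within each line with the same term. CPM are TMM-scaled within these fits. The code was tested on simulated data. Members, classes, lists and tests were chosen with earlier results of these data known. Named with values by culture are the lowest and highest member of each class in heavy translation efficiency, any member past the threshold in total mRNA, light polysome mRNA or light translation efficiency, and EIF4G2. KPNB1, also given by culture, and other genes named were chosen after their values were seen. Alternatives were DESeq2 1.42.0, library size alone, limma 3.58.1 on quantile-normalized log2(CPM + 1), other filters (none, or at least 10 counts), all 14 libraries, a replicate block, no culture term, an offset for coding length (lowess, span 0.3), other shNSi pools and each culture left out. Added after seeing the data were crossed replicate numbers, further exchanges of shNSi pools in heavy over light, and the comparisons of heavy over light between lines and of the moderate pool within shNSi. Heavy over light between lines was run only with other shNSi pools, a replicate block and cultures left out.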

Additional observations from a re-analysis of the deposited data

Results flagged for a closer look

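The heavy over light ratio was lower in shDAP5 than in shNSi for 19 members by edgeR's test of the interaction of fraction and shRNA (adjusted p under 0.05), with values for NUP188, IPO7, NUP205 and NUP160 given above. That test was not run with the length offset, DESeq2, limma or library size alone. The count of lower members was 16 with the replicate block, against 3.94% of all genes. With 1 culture left out the members' median difference lay between −1.60 and −1.07. How the calls depended on single cultures is given above. The shNSi moderate pool, which has no matching shDAP5 library by title, held 8 members above their level in shNSi light polysomes (edgeR, against 14.8% of 15000 genes). They were KPNA3, KPNA4, KPNA6, NUP35, NUP37, NUP43, NUP58 and XPO7, with log2 differences from 0.73 for KPNA4 to 1.64 for NUP43. The share of members called there, 16.7%, was near that of all genes.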

How the results depend on the processing

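Counts are members called by edgeR unless another tool is named. Total mRNA called 0 members under each alternative that kept all cultures, where 0.0185 to 2.43% of all genes were called. Heavy over light within shNSi called 8 with shNSi moderate in place of heavy, against 33.2% of all genes in either direction. Under the other alternatives that kept all cultures it called 29 to 41, against 33.1 to 62.7%. With 1 culture left out its median lay between 1.84 and 2.28. For heavy polysome mRNA, 34 called became 15 with the length offset, 21 with the replicate block and that offset, 30 with the replicate block alone, 0 with shNSi moderate as control, 2 with heavy and moderate summed and 0 to 32 with 1 culture left out (0 without shDAP5 culture 2), and the median with the moderate control was 0.42. All these members were called lower, and the shares of all genes called lower were 16.7% in the comparison as reported, then 6.16%, 12.3%, 17.4%, 0.165%, 2.22% and 0.00672 to 16.7%, in the same order. For heavy translation efficiency, 25 called became 0 with library size without TMM, 16 with limma, 28 with DESeq2, 3 with the length offset, 16 with the replicate block, 4 with both, 0 with no term for each culture, 0 with shNSi moderate, 0 with heavy and moderate summed and 0 to 32 with 1 culture left out (0 without shNSi culture 2, 1 without shDAP5 culture 2), and the median with the moderate control was 0.55. All these were lower too, and the shares of all genes called lower were 8.23%, then 0%, 2.95%, 13.6%, 1.06%, 3.38%, 1.84%, 0%, 0%, 0% and 0.0188 to 15.5%. Light polysome mRNA called 5 with shNSi moderate, 1 with light and moderate summed and 0 to 8 with 1 culture left out (8 without shNSi culture 1), and light translation efficiency 7, 1 and 0 to 6 (6 without shNSi culture 1). Heavy over light in shDAP5 called 3 to 6 with 1 culture left out, 3 without culture 1 and 6 without culture 2. Its difference between lines called 0 with heavy and moderate summed, 0 with moderate in place of heavy (median 0.36), 16 with the replicate block and 0 to 27 with 1 culture left out (12 without shNSi culture 2, 0 without shDAP5 culture 2). Where a culture was left out the lone culture was assumed to vary like the others. For heavy over light within a line, those fits also took their spread from the other line. Heavy over light between lines reached 27 without shNSi culture 1, where a larger share of all genes was called as well. The median difference there was −1.39 in the members and 0.02 over all genes, against −1.32 and 0.05 with all cultures. The cause was not tested in these cases.

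Replicate numbers are shared between lines, but same-numbered cultures deviated together with r of −0.13 in total mRNA, 0.06 in heavy and 0.05 in light polysomes, −0.29 in heavy and 0.01 in light translation efficiency, so the numbers were not taken as pairs. The replicate block changed no other count of calls between the lines by over 1.5 times. With crossed numbers total mRNA called 0, against 0.474% of all genes, and heavy translation efficiency 37, all lower, against 15.4%.

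Among named members, direction in heavy translation efficiency changed as follows. With shNSi moderate as control the log2 change was 0.93 for CSE1L, 0.022 for XPO6, 0.70 for TNPO1, 0.073 for IPO13, 0.54 for KPNA1, −1.97 for KPNA7, 0.57 for NUP210, 1.09 for NUP107, −0.055 for NUP37, 0.70 for TPR, 1.04 for NUP188, −0.31 for NUP35, 0.67 for NUP214, 0.77 for NUP88, 0.77 for NUP98 and 0.41 for NUP62. With heavy and moderate summed it was 0.10 for XPO6, 0.14 for IPO13, −1.17 for KPNA7, −0.025 for NUP35 and 0.11 for NUP62. With library size without TMM it was 0.18 for XPO6, 0.21 for IPO13, 0.048 for POM121 and 0.040 for NUP50, and with limma 0.24 for XPO6, 0.093 for IPO13, −0.061 for KPNA7 and 0.0030 for NUP50. With at least 10 counts in every library it was 0.014 for XPO6 and 0.048 for IPO13. With the length offset, and the same with the replicate block added, it was 0.73 for XPO6, 0.68 for IPO13, 0.53 for POM121 and −0.14 for NUP37, with NUP35 at −0.16 and −0.15. With 1 culture left out it ranged from −0.29 to 0.25 for IPO13, −0.38 to 3.85 for KPNA7, −0.26 to 0.53 for NUP35, −0.14 to 0.45 for NUP37, −0.42 to 0.069 for NUP50, −0.45 to 0.11 for POM121 and −0.090 to 0.010 for XPO6. None of these 7 members was called lower in the first place. Depth limits KPNA7, IPO4 and KPNA5.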
